A study of Homo sapiens with 12 samples.

Results

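The 6 genes described here lie at or near some of the strongest recurrent peaks of the Notch3 antibody in cells carrying N3ICD, the intracellular domain of NOTCH3. They are SULT4A1, MIDN, LMLN, CCDC97, ADGRD1 and OLFM2, 6 of 20037 protein-coding genes. They were chosen by the fold and −log10 q of those peaks, from the same N3ICD libraries, and by the absence of GFP peaks there. The peaks described are all those with a summit, the highest point of a peak, inside a gene or within 100 kb of it (150 kb for ADGRD1). There were 35 such peaks among the 12583 peaks of the series. The samples were H9 cells, a long-established line of human embryonic stem cells, differentiated to neural crest and infected with a lentivirus. The virus carried GFP in the GFP group and N3ICD with GFP in the N3ICD group, and cells were fixed 6 days later. The labels call the GFP cells neural crest and the N3ICD cells mural, the class of pericytes and vascular smooth muscle. Each group had 3 Notch3 chromatin immunoprecipitation libraries, A, B and C, from separate differentiations of this 1 line, and 3 input libraries not analysed here. The promoter of the lentivirus was not given in the sources used here, and peak lists hold no expression with which to check the cell types.

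When a Notch receptor meets its ligand, its intracellular domain is cut free, moves to the nucleus and joins the DNA-binding protein RBPJ and a Mastermind coactivator. In mural cells NOTCH3 is the main receptor of this pathway. None of the 6 genes is among the textbook Notch targets, which are repressors of the HES and HEY families. Sites near HEY1 and in HEYL were among the 11 highest ranked recurrent regions described below, but those genes are not part of this set. SULT4A1 is a brain sulfotransferase family member, and MIDN encodes midnolin, which carries nuclear proteins to the proteasome. LMLN encodes a leishmanolysin-like metallopeptidase, whose Drosophila counterpart is needed for cell division and migration. CCDC97 encodes a coiled-coil protein. ADGRD1 (GPR133) is an adhesion receptor that raises cyclic AMP. OLFM2 is a secreted olfactomedin that has been linked to smooth muscle differentiation.

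Sequence was available for gene starts, not for the peaks themselves. RefSeq windows of 300 bases around gene starts (GRCh38.p14) were matched for 4 of the 6 genes, MIDN, LMLN, CCDC97 and OLFM2, which have 8 listed starts among them. Shown are the CCDC97 start that lay under a peak of N3ICD C (chr19:41310227-41310526, plus strand), the OLFM2 start nearest to its peaks (chr19:9936466-9936765, minus strand) and the start of STK11, a MIDN neighbour, that N3ICD C also covered in part (chr19:1205528-1205827, plus strand). Each reads 5′ to 3′ in the direction of the gene.
CCDC97: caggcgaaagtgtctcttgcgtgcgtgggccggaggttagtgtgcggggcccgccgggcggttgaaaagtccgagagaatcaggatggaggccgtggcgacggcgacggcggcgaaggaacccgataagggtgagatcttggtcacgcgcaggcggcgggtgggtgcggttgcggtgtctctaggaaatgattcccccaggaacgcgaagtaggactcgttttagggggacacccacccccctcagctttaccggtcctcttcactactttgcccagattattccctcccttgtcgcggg
OLFM2: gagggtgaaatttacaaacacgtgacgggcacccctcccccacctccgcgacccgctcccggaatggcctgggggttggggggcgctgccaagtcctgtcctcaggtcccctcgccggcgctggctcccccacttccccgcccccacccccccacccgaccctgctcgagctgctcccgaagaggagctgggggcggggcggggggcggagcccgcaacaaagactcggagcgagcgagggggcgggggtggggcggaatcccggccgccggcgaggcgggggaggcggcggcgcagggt
STK11: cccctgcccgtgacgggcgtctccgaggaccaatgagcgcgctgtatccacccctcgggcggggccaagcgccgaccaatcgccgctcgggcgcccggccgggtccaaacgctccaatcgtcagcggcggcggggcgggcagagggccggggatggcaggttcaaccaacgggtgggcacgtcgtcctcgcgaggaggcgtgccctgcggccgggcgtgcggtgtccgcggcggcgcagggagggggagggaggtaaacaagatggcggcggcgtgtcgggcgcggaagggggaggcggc
The core RBPJ motif TGGGAA, searched on both strands, would be in capitals, and none of these 3 windows holds it. It was present in 1 of the 8 listed windows of the 6 genes, an inner OLFM2 start, and in 24.0% of 35116 listed windows of this length. The longer form GTGGGAA, which contains it, was in 0 of the 8 and in 6.25% of all. These counts say only which letters stand in the windows.

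Peak calling by the authors was done library by library on hg38. The pileup is the number of fragments stacked at a summit. Fold is the authors' ratio of that pileup to the local background. The q value is their p-value adjusted over the genome, given as −log10 q, so that a larger value is a stronger peak. The 3 GFP libraries held 1219 to 1718 peaks and the 3 N3ICD libraries 2226 to 3397. Background over the genome, the only measure of depth here, was 1.20 to 1.90 fragments with GFP and 0.926 to 1.58 with N3ICD. Each N3ICD library had a peak inside NOTCH3 (2 in A and 1 each in B and C), whereas the GFP libraries had 0. A site there, found in all 3 N3ICD libraries, is itself an N3ICD-only region as defined below. It therefore checks the labels no more than other such regions do. Overlapping peaks were joined into regions. A region was called N3ICD-only where 2 or more N3ICD libraries and none of the GFP libraries had a peak, as in 200 of 12268 regions (1.63%). The lead site of a gene is the region in its window with the highest mean −log10 q over the N3ICD libraries. Since these values chose the genes, the lead sites are described without a test.

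No GFP library had a peak in any of the 6 windows. The GFP peak nearest to each gene lay between 287224 bp (OLFM2, in GFP C) and 1908834 bp (ADGRD1, in GFP C) away. This absence is common for a single gene, since 82.2% of protein-coding genes had no GFP peak within 100 kb. That share is not for 6 genes together, and the windows differ in length. The median protein-coding gene spanned 24100 bp, and the 6 genes span 10561 (MIDN) to 187563 bp (ADGRD1, whose limit was 150 kb). The lowest pileup that was called anywhere was 7, 6 and 8 fragments in GFP A, B and C, so a GFP signal under about that height would not be listed.

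The lead site of SULT4A1 lay inside the gene (chr22:43834208-43835236), 9896 to 10541 bp from its low-coordinate end. The pileup was 34, 33 and 39 fragments in N3ICD A, B and C, a mean of 35.3 ± 3.21 (SD, n = 3). These 3 libraries were close together, with the highest 1.18 times the lowest, the smallest spread among the 4 lead sites found in all of them. The fold was 15.4, 11.3 and 18 and the −log10 q 27.5, 19.6 and 37.6, which ranked first, first and second in the library. The peaks were also among the widest of their libraries, at 1004, 982 and 981 bp (the widest of 2226, and ranks 2 and 5 in B and C). Their extents matched over 956 bp, yet the summits did not. Those of A and B were 37 bp apart near the high-coordinate edge, and that of C lay 608 and 645 bp away from them near the other edge. No other site found in all 3 N3ICD libraries had summits so far apart.

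The lead site of MIDN lay just past the 3′ end of the gene (chr19:1258883-1259545), with summits 141 to 148 bp beyond it. MIDN runs on the plus strand, and the nearer of its 2 listed starts was 9400 bp from the median summit. The pileup was 19, 27 and 53 fragments in N3ICD A, B and C, a mean of 33.0 ± 17.8 (SD, n = 3). N3ICD C stood apart, with its highest pileup of any peak. Fold spread further, from 6.42 and 7.01 in A and B to 25.8 in C. The local background behind it was 2.11 and 2.99 fragments in A and B, above the genome backgrounds of 1.27 and 1.58, and 1.09 in C against 0.926. The summits were the closest of any of the 24 regions found in all 3 libraries, within 7 bp. N3ICD B had a further strong peak inside MIDN, of 18 fragments and 777 bp with a −log10 q of 5.30, and its summit lay 2041 bp from a listed start. N3ICD C had a weak peak of 7 fragments (−log10 q 0.828) 3327 bp from the same start.

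The lead site of CCDC97 was also at the far end of its gene (chr19:41323615-41324508), inside it and 980 to 1049 bp before the 3′ end. The pileup was 24, 7 and 26 fragments in N3ICD A, B and C, a mean of 19 ± 10.4 (SD, n = 3). A and C were alike and B was at the lowest pileup called in that library, 7. The −log10 q was 15.8, 0.244 and 20.7, so the site was among the 6 strongest peaks in A and C and ranked 2154 of 2490 in B. The peak in B was wide all the same, at 597 bp (rank 33), and its summit lay 50 and 69 bp from those of A and C. N3ICD C alone had 2 more peaks at this gene, each of 11 fragments. The first covered 299 of the 300 bases of the start shown above, with its summit 37 bp from that start and a −log10 q of 3.25. The second lay 371 bp past the 3′ end (−log10 q 3.57).

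The lead site of LMLN was inside the gene (chr3:198030784-198031310), 12728 to 12764 bp before its 3′ end and 70739 to 70775 bp from its listed start. The pileup was 16, 11 and 25 fragments in N3ICD A, B and C, a mean of 17.3 ± 7.09 (SD, n = 3). The −log10 q was 5.18, 1.71 and 21.1, high in C and lowest in B. The summits lay within 36 bp. N3ICD C had a second peak of 9 fragments in the gene, 11200 bp before its 3′ end (−log10 q 1.69).

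The site assigned to ADGRD1 was 110454 and 110492 bp from the gene by its summits in C and A (chr12:131251657-131252104), and ADGRD1 was still the protein-coding gene with the nearest end. It lay in the long noncoding RNA gene LOC105370082, 10800 and 10838 bp from that gene's listed start. The pileup was 22 and 27 fragments in N3ICD A and C, and N3ICD B had no peak. The −log10 q was 13.4 and 23.4, and the fold 10.1 and 14.2, with summits 38 bp apart. At the gene itself there were only weak single peaks. N3ICD A had 6 fragments inside it, 712 bp from its low-coordinate end (−log10 q 0.104), and N3ICD C had 7 fragments 6713 bp outside that end (−log10 q 0.724).

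The lead site of OLFM2 lay upstream of the gene (chr19:9945524-9945804), 9145 and 9159 bp from the start shown above. The pileup was 13 and 16 fragments in N3ICD A and C, again with no peak in B, and the −log10 q was 3.85 and 9.30. The summits were 14 bp apart, and the peaks were narrow, at 264 and 246 bp. OLFM2 alone of the 6 genes had a second N3ICD-only region (chr19:9937734-9938140), this time in A and B. Its pileup was 9 and 10 fragments and its −log10 q 0.877 and 1.24, with summits 1285 and 1386 bp upstream of the same start. N3ICD B was thus missing at the distal site and present at the one near the start, and C the reverse.

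**Figure D1:**
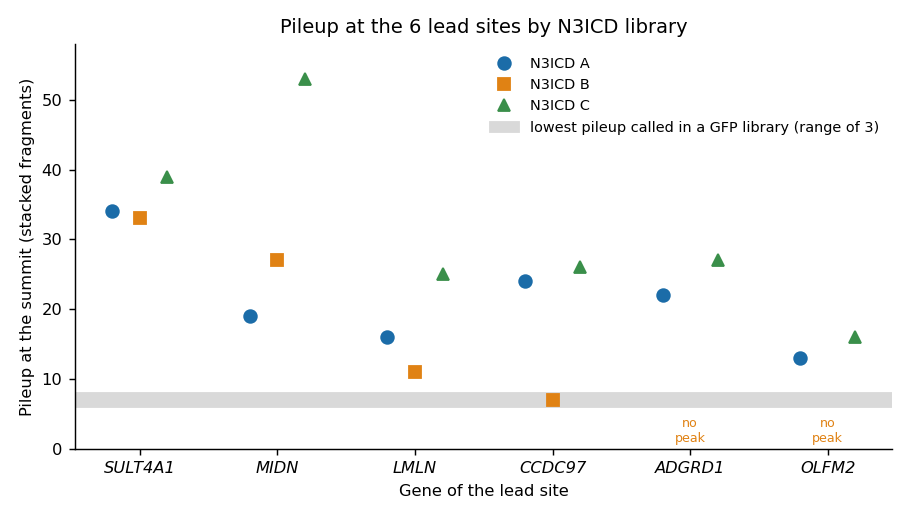
Pileup in stacked fragments (vertical axis) at the lead site of each gene (horizontal axis), 1 symbol per N3ICD library, with the range of the lowest pileup called in the 3 GFP libraries, 6 to 8, in grey. SULT4A1 has 3 values between 33 and 39, MIDN reaches 53 in N3ICD C, CCDC97 falls to 7 in N3ICD B, and ADGRD1 and OLFM2 have no peak in N3ICD B.

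By mean pileup the order was SULT4A1, MIDN, ADGRD1 (24.5 ± 3.54, SD, n = 2), CCDC97, LMLN and OLFM2 (14.5 ± 2.12, SD, n = 2). Each neighbouring pair in this order differed by less than the larger SD of the pair, and the means of ADGRD1 and OLFM2 leave out N3ICD B. The order also changed with the library. SULT4A1 led in A and B and MIDN in C, and CCDC97 was second in A but last of 4 in B. N3ICD B was the lowest library at LMLN and CCDC97 and had no peak at ADGRD1 and OLFM2. The genome background of N3ICD B was the highest of the 3, at 1.58 fragments, and the part of depth in these differences was not tested. All 6 lead sites in A, and all 6 in C, were among the 25 peaks of highest −log10 q in the library, against 2 of the 4 in B.

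No single threshold of strength gives exactly these 6 genes. Peaks past a −log10 q of 5 made up 0.584% of the peaks of N3ICD A, 0.442% of those of B and 1.24% of those of C. Only 6 of all 12268 regions (0.0489%) passed it in 2 or more of these libraries, and all of them were N3ICD-only. These 6 were the lead sites of SULT4A1, CCDC97, ADGRD1, MIDN and LMLN and a site in EXD3. Just inside were EXD3, whose second-highest −log10 q over the N3ICD libraries was 6.59, and LMLN with 5.18. Just outside were sites near MCAM with 4.66, in NOTCH3 with 4.22 and near OLFM2 with 3.85. A site near HEY1, with 3.78, had a pileup of up to 32 fragments, the third highest of the 200, and a mean −log10 q of 11.7, above those of LMLN (9.33) and OLFM2 (4.38). The 100 kb limit has an edge at CCDC97, where a peak 84027 bp away in N3ICD A (8 fragments, −log10 q 0.517) was inside and a peak 101104 bp away in N3ICD C (6 fragments, −log10 q 0.427) was outside.

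**Figure D2:**
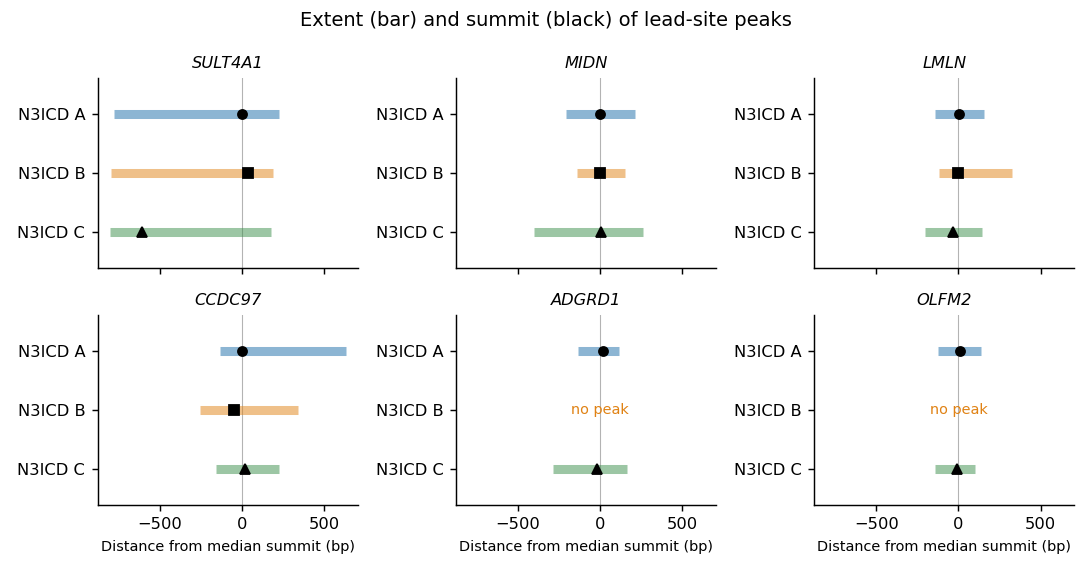
Extent (coloured bars) and summit (black symbols) of each N3ICD peak at the lead sites, by distance in bp from the median summit of the site. At SULT4A1 the 3 extents coincide over 956 bp while the summit of N3ICD C lies 645 bp from that of B, and at MIDN the 3 summits fall within 7 bp.

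Summits lay close together at most of these sites, SULT4A1 apart, as they did at other strong regions. The distance between the outermost summits was at most 50 bp, a limit chosen after seeing the values, at 4 of the 6 lead sites (MIDN, LMLN, ADGRD1 and OLFM2) and at 61 of the other 194 N3ICD-only regions (31.4%). The medians were 37 and 96.5 bp. Among regions found in all 3 N3ICD libraries, 2 of the 20 others had summits this close, against MIDN and LMLN of the 4 lead sites. The 5 other regions among the 11 that ranked highest by the second-highest −log10 q had summits 29 (EXD3), 52 (MCAM), 51 (NOTCH3), 17 (HEY1) and 16 bp (HEYL) apart, so close summits are not particular to the lead sites. The highest pileup was 16 to 53 fragments at the lead sites and 16 to 32 at these 5 other regions. The part of pileup in summit agreement was not tested.

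The position of the lead sites was not used to choose the genes. No lead site lay within 1 kb of a listed start of a protein-coding gene, whereas 111 of the other 194 N3ICD-only regions (57.2%) did. MIDN and CCDC97 had theirs by the median summit 145 and 999 bp from the far end of the gene. Of the other 194, 5 were within 1 kb of an end of a gene with a listed start, but of no listed start. Which end of the gene this was went unchecked, so some of these 5 may be at starts that are not listed. The lead sites of SULT4A1, LMLN, ADGRD1 and OLFM2 were 9152 bp or more from any end of a protein-coding gene. Ranked by the second-highest −log10 q, the first 11 of the 200 regions included none at a listed start, and the first at a start was that of ARMC8, at rank 12 with 3.02. Regions at a listed start had a median highest pileup of 10 fragments (range 7 to 26), and the 62 regions farther than 1 kb from every gene end had 12.0 (6 to 39). Of the 40 regions with a second-highest −log10 q of at least 1.3, 18 (45.0%) were at a listed start, against 93 of the other 160 (58.1%). The first 11 and the 40 both hold all 6 lead sites, which were chosen by −log10 q, and the 62 hold 4 of them. The gap between these shares therefore comes in part from the chosen sites. Regions are not replicates, so these shares carry no test. Starts were listed for 79.1% of protein-coding genes, and 20 of the 194 regions were at an end of a gene with no listed start. Exons and introns were not used here.

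**Figure D3:**
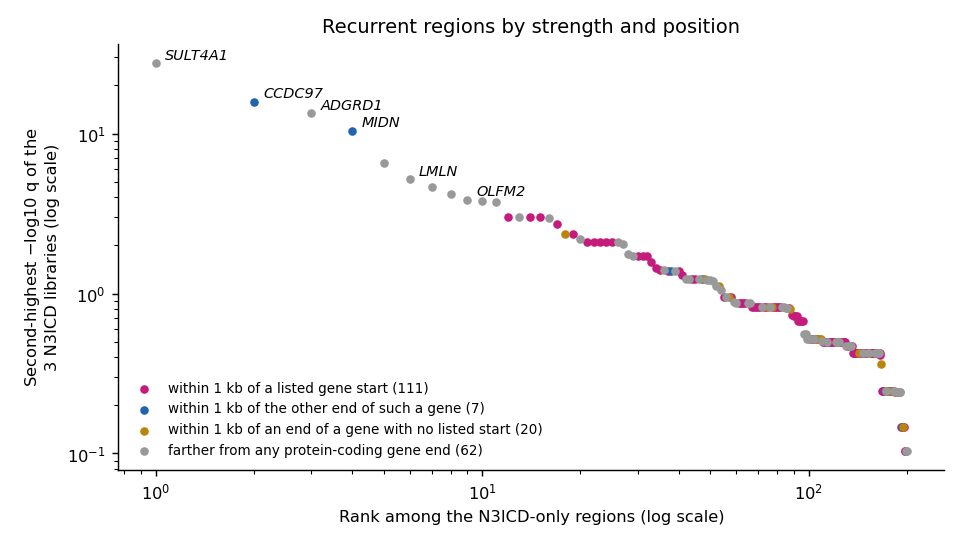
The 200 N3ICD-only regions by rank (horizontal, log scale) and by the second-highest −log10 q of the 3 N3ICD libraries (vertical, log scale), coloured by position. The lead sites are named, and no region at a listed gene start ranks above 12. Apart from MIDN and CCDC97, regions coloured as at the other end of a gene may lie at an unlisted start, since the end was not checked.

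Apart from the lead sites, the windows held 19 peaks, and all were from N3ICD libraries. N3ICD A had 3 of them, B had 6 and C had 10, and the GFP libraries had 0, a mean of 6.33 ± 3.51 against 0 (SD, n = 3 each). As a share of the peaks of each library they made up 0.135%, 0.241% and 0.294%, against 0% with GFP. The planned permutation test is not used, because the genes were chosen partly for lacking GFP peaks and the GFP count was 0 in every library. Leaving the lead sites out removes only N3ICD peaks, so this count is lower for N3ICD by construction. Over all protein-coding genes the mean number of peaks within 100 kb of a gene was 0.199, 0.381 and 0.474 in the N3ICD libraries and 0.0604, 0.0889 and 0.0966 in the GFP libraries, in the order A, B, C. MIDN, CCDC97 and OLFM2 are on chromosome 19, whose genes had 0.260, 0.537 and 0.724 such N3ICD peaks on average. At these rates few or no GFP peaks would fall in 6 windows. Only 5 of the 19 peaks reached a −log10 q of 1.3, with 0, 2 and 3 in A, B and C. The pileup of the 19 ranged from 5 to 18 fragments. They formed 18 regions, of which 17 were found in a single library.

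**Figure D4:**
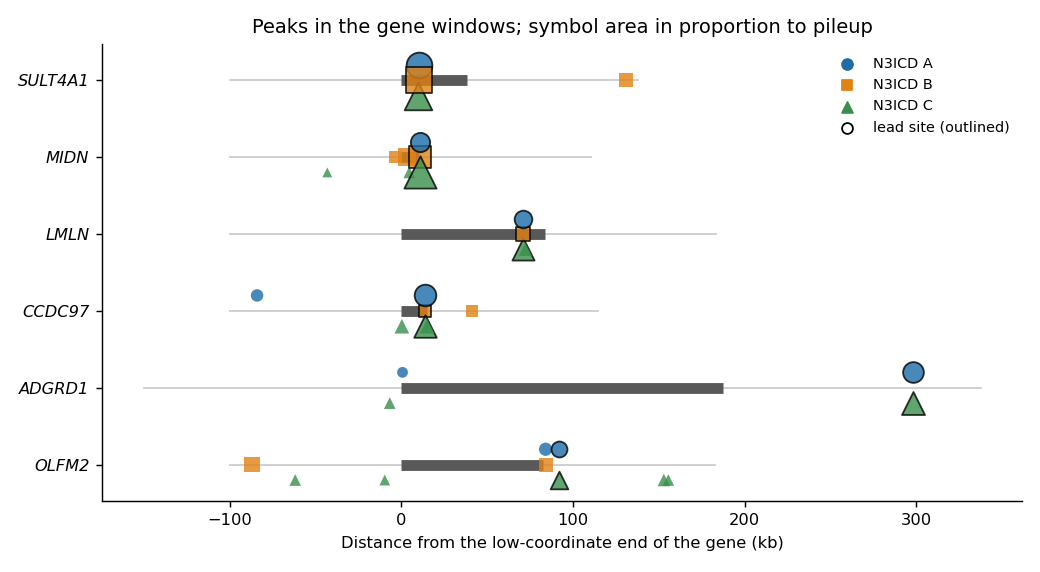
All 35 peaks by distance in kb from the low-coordinate end of each gene (dark bars are the genes, grey lines the windows), with symbol area in proportion to pileup and lead sites outlined. Lead sites lie inside or close to the gene except at ADGRD1, and the 19 other peaks have 5 to 18 fragments, the highest of them in MIDN in N3ICD B.

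Other genes near the lead sites were counted whatever their values. Within 100 kb there were 23 other protein-coding genes, with 3 at SULT4A1, 8 at MIDN, 2 at LMLN, 7 at CCDC97, 0 at ADGRD1 and 3 at OLFM2. None had an end within 1 kb of a lead summit. The closest was TGFB1, 6449 bp from the CCDC97 site by its 3′ end and 30048 bp by its listed start. TGFB1 encodes transforming growth factor beta 1, a driver of smooth muscle differentiation. CIRBP, a cold-induced RNA-binding protein gene, was 10044 bp from the MIDN site by its listed start. COL5A3, a fibrillar collagen gene, was 13894 bp from the OLFM2 site by its 3′ end and 64837 bp by its listed start. EFCAB6 was 22708 bp from the SULT4A1 site, and DRC9, a ciliary gene, was 70809 bp from the LMLN site. Of the 23, 5 held N3ICD peaks of their own. The share of all protein-coding genes with a peak inside was not computed, so whether this is unusual was not tested. None of the 23 held a GFP peak, but the lead-site genes were chosen partly for lacking GFP peaks nearby. The GFP peak nearest to any lead-site gene lay 287224 bp away (OLFM2, in GFP C), so the absence in their neighbours adds nothing. TGFB1 had 7 fragments in N3ICD B (−log10 q 0.244), and AXL, a receptor tyrosine kinase gene, had 8 in N3ICD A (0.517), 610 bp from a listed start. COL5A3 had 8 and 7 fragments in N3ICD C (1.12 and 0.427), and ATP5F1D had 7 in N3ICD B (0.244). These peaks were weak, and each was in a single library. Of the other peaks, that of N3ICD C beside STK11, a kinase tumour suppressor gene, had 5 fragments (0.147) and covered 164 bases of the start shown above. N3ICD B had 10 fragments inside SAMM50, 205 bp from its start (−log10 q 1.24), and 12 inside ZNF846 (2.34). Which gene, if any, responds to a site cannot be read from peak lists.

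Relatives of the 6 genes were examined in the same way. An N3ICD-only region within 100 kb was present for 3.87% of all protein-coding genes. It was present for 1 of the 12 other cytosolic sulfotransferase genes, 0 of the 27 other adhesion receptor genes and 1 of the 7 other olfactomedin genes, and LMLN had no relative in the gene table. The sulfotransferase was SULT1A3, which has a near-identical copy, so its reads may be shared. Its region, 5030 and 5080 bp away, had 12 fragments in N3ICD B and 9 in N3ICD C (−log10 q 0.826 and 1.22). The olfactomedin was OLFML2A, a secreted matrix protein gene, with 9 fragments in B and 5 in C (0.826 and 0.147). Those 2 peaks were joined by a short overlap, with summits 625 bp apart, and the gene end nearest to them was that of NR6A1, at 259 bp. The end nearest to the SULT1A3 region was that of SLX1A. Any N3ICD peak within 100 kb was found for 5, 15 and 3 of these 12, 27 and 7 relatives. Any GFP peak was found for 4, 6 and 1, in the same order. Of all protein-coding genes, 58.1% had an N3ICD peak within 100 kb and 82.2% had no GFP peak there.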

How the data were processed

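Notch3 ChIP-seq peak lists of 6 libraries were used. Cells were fixed in 1% formaldehyde and chromatin was digested enzymatically, per the labels' protocols. The submitters' processing notes name MACS3 3.0.0a7 for peaks, Bowtie2 2.2.1 for alignment to hg38, and deepTools 3.5.1, bedtools 2.30.0 and SAMtools 1.11. Options and the control of each call are not stated there. Enzymes cut open chromatin preferentially, and without a matched input such sites can appear as peaks. The deposited fold is a ratio of pileup to local background, and the deposited −log10 p and −log10 q come from the same caller, with a lenient cut, since every list starts at a −log10 p of 3.3. The deposited signal is the pileup at the summit, and whether it was scaled is not stated.

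Positions are 1-based. Peaks overlapping by at least 1 bp were joined. Local background was computed as (pileup + 1) / fold − 1, and genome background is its lowest repeated value. Gene spans and starts came from RefSeq tables of GRCh38.p14. The planned two-sided exact permutation tests of 3 against 3 libraries cannot give a p-value under 0.1 and are not used, since GFP was at 0 throughout. The rule for named genes took the 6 members, the genes holding or nearest to a lead summit, and relatives with an N3ICD-only region; other neighbours were named after their values were seen, and 1 neighbour is not reported here. Members, lists and tests were chosen with earlier results of these data known. Read totals were not given, so no counting intervals are stated. The joining of peaks was tested on simulated data. The planted regions lay apart from the background peaks and had a peak in every N3ICD library. Chance overlaps with background and missing peaks were therefore not tested. The scripts ran under Python 3.11.15 and used matplotlib 3.10.9, pandas 2.3.3 and numpy 2.4.6.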

Additional observations from a re-analysis of the deposited data

How the results depend on the processing

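GFP libraries had 0 other peaks in the 6 windows under the main setting and the alternatives, so the sign of the difference could not change and says nothing of stability. The difference of 6.33 peaks moved to 1.67 when a −log10 q of 1.3 or more was required and to 3.33 with equal numbers of peaks per library, since both settings admit fewer peaks. It ranged from 4.50 to 8 with 1 library left out, and the share from 0.188 to 0.268 percentage points. With the replicate letter as a block the differences were 6.33 peaks and 0.223 percentage points. Libraries of the same letter did not deviate together (correlation of per-gene deviations 0.0111, -0.00649 and -0.0151 for A, B and C). Pairs of other letters gave -0.0163 to 0.0202. The mean was at most 0.474 peaks per gene, and counts this sparse cannot tell whether the letters are paired. N3ICD libraries with a peak at the lead sites of SULT4A1, MIDN, LMLN, CCDC97, ADGRD1 and OLFM2 numbered 3, 3, 3, 3, 2 and 2. Requiring a −log10 q of 1.3 or more left 3, 3, 3, 2, 2 and 2, and requiring 5 or more left 3, 3, 2, 2, 2 and 1. Without N3ICD C the distance between SULT4A1 summits was 37 in place of 645 bp.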
